A study of Mus musculus with 20 samples.

Results

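The genes described are 40 genes of the receptor PPAR alpha (Ppara) and of fatty acid oxidation, out of 12986 genes with a detected probe on the arrays. A probe was assigned to a gene through the accession that the array design gives it, and each gene was measured by the detected probe of highest mean intensity. A probe was taken as detected when at least 4 of the 5 arrays of a group exceeded the negative control spots. All 40 genes had such a probe. By compartment they were 12 peroxisomal genes, 17 mitochondrial genes, 1 gene with products in both organelles (Crat), and 10 others that comprise the receptor and its targets elsewhere in the cell or outside it.

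Liver RNA came from male Muta™Mouse animals (transgenic mouse strain 40.6) at 25 weeks of age. A control group of 5 mice received olive oil by daily gavage for 28 days, and 3 further groups of 5 mice received benzo(a)pyrene (BaP), a polycyclic aromatic hydrocarbon, in olive oil at 25, 50 or 75 mg/kg/day. All animals carried the transgene and were killed 3 days after the last dose, so no value shows the liver during dosing. Each liver (Cy5) was hybridized on 1 array against a universal mouse reference RNA (Cy3) pooled from 11 mouse cell lines, and the value of a gene is the log2 ratio of liver over reference. Replicates are numbered 1 to 5 in the controls, 6 to 10 at 25, 11 to 15 at 50 and 16 to 20 at 75 mg/kg/day. For the lowest dose the sample labels state 25 and the design text 24 mg/kg.

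PPAR alpha is a nuclear receptor that is activated by fatty acids and binds DNA together with the retinoid X receptor, at a direct repeat of a short motif. In liver it switches on the genes for fatty acid uptake, omega-hydroxylation, peroxisomal and mitochondrial beta-oxidation and ketone body production, mainly during fasting. Peroxisomes shorten very long fatty acids, and mitochondria, which long fatty acids enter through the carnitine shuttle, oxidize the rest. The comparison asked whether the liver expression of these genes differed between exposed and control mice.

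The labels name lungs in one field and liver in another. All 9 hepatocyte markers with a probe carried the scanner software's mark for spots well above background on all 20 arrays. Of 6 lung epithelial markers with a probe, 4 were detected. Sftpd was marked on 19 arrays, Sftpa1 on 16, Scgb1a1 on 5 and Ager on 1, while the surfactant genes Sftpb and Sftpc were marked on 0. Of 6 adipocyte markers 4 were detected. Lipe was marked on 20 arrays, Cfd on 4, Retn on 3 and Adipoq on 1, but Lep and Plin1 on 0. The 6 liver endothelial markers were above the control mean at 75 mg/kg/day in 6 of 6 cases, and 1 of them was called. Their median difference was 0.44 in the log2 ratio and 0.42 without the reference. Stellate cell markers had medians of 0.40 and 0.25 at that dose, with and without the reference. Kupffer cell markers had 0.10 and -0.07, with 1 called. Bile duct markers had -0.17 and -0.08, B cell markers 0.02 and 0.04, and T cell markers -0.32 and -0.19. The part of these cell types in the results below was not tested. The share of all spots marked in the liver channel was 51.9% to 67.5% per array and highest in control replicate 4. Dose nearly coincided with the position of an array on its slide, and the part of position in any difference cannot be told apart from that of dose. Slide and dose were also partly mixed. Replicates 6 and 7 at 25 and 19 and 20 at 75 mg/kg/day were on slides without a control. Control replicates 2 and 3 shared a slide with replicates 12 and 13 at 50 mg/kg/day alone. The reference was always in the same dye, so a level against the reference is open to dye bias, while differences between groups compare arrays labelled alike.

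Promoter windows of RefSeq (GRCm38.p6, from 250 bases before to 50 after a start site) were held for 32 of the 40 genes, in 35 windows. The motif AGGTCA, searched on both strands, was in 28.6% of these windows and in 16.3% of all 32851 windows. The direct repeat AGGTCANAGGTCA, 2 copies of the motif spaced by 1 base, was in 0 windows of the genes without a mismatch and in 0.0396% of all windows. With up to 2 mismatches it was in 6 windows of the genes (17.1%), those of Fabp1, Acot4, Plin2, Creb3l3, Slc25a20 and Echs1, and in 3.86% of all windows. The letters of the repeat include those of the single motif, so the counts overlap, and a match is a description of the letters and not a binding site. The sequences below run 5′ to 3′ on the strand of the gene and end at the start site, with the match to the repeat in capitals.
They are shown for Fabp1 (chr6:71199629-71199878, plus strand, 1 mismatch), which had the highest or second highest estimate at every dose. They are also shown for Acot4 (chr12:84038129-84038378, plus strand, 2 mismatches) and its neighbour Acot1 (chr12:84009252-84009501, plus strand, no match). These 2 genes had the highest correlations with Cyp4a14 between animals when slide was not taken into account. The last is the lipid droplet gene Plin2 (chr4:86670060-86670309, minus strand, 2 mismatches).
Fabp1: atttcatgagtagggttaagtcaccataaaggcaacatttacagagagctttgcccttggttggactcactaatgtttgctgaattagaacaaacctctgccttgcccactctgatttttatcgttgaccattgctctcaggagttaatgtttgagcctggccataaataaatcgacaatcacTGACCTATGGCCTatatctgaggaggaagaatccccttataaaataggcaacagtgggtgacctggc
Acot4: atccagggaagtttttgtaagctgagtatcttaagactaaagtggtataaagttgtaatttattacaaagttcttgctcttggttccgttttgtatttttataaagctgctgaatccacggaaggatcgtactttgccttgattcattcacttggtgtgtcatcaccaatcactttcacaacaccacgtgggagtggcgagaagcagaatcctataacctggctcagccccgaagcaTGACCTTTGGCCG
Acot1: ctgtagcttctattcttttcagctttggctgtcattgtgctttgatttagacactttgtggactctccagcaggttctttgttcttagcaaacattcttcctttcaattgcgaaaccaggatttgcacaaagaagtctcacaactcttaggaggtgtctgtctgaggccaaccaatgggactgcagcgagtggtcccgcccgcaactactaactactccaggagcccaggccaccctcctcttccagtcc
Plin2: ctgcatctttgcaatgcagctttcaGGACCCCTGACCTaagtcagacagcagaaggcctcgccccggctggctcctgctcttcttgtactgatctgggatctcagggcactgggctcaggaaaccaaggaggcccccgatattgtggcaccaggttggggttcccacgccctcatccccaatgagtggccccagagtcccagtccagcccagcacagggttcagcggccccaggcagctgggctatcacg
The 3 printed matches lie on the strand opposite to the gene, so their exact copy of AGGTCA reads TGACCT. The match began 67 bases before the start site in Fabp1, 13 bases before it in Acot4 and 225 bases before it in Plin2.

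No member of the set met the call rule at any dose. By limma with Benjamini-Hochberg adjustment over the 27346 detected probes, with a call at an adjusted p below 0.05 and a fold change above 1.5, 0 of the 40 genes were called at 25 mg/kg/day, 0 at 50 and 0 at 75. Over all detected probes the rule called 0% at 25, 0% at 50 and 0.135% at 75 mg/kg/day. A linear trend with dose was called for 0 of the 40 genes and for 0.157% of all probes. The lowest adjusted p among the genes was 0.636 at 25, 0.583 at 50 and 0.262 at 75 mg/kg/day, and 0.454 for the trend.

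An unadjusted p below 0.05 was reached by 2 genes at 25 mg/kg/day, 4 at 50 and 6 at 75, against 7.81%, 6.7% and 11.2% of all probes. For the trend it was reached by 6 genes, 3 with a slope above 0 (Acaa1b, Decr2 and Acaa2) and 3 below 0 (Slc25a20, Cpt2 and Acadvl), against 8.58% of all probes. At no dose did the 5 exposed arrays of a gene lie all on one side of the 5 control arrays, which 1.22%, 0.823% and 1.52% of all probes did at 25, 50 and 75 mg/kg/day. The 95% interval of the change lay within a 1.5-fold change in either direction for 23 genes at 25, 22 at 50 and 21 at 75 mg/kg/day. Within a 2-fold change lay the intervals of 36, 34 and 34 genes. The intervals of the 4 to 6 remaining genes reached past 2-fold, and Cyp4a14, Pdk4, Fgf21 and Fabp1 were among them at every dose.

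**Figure D1:**
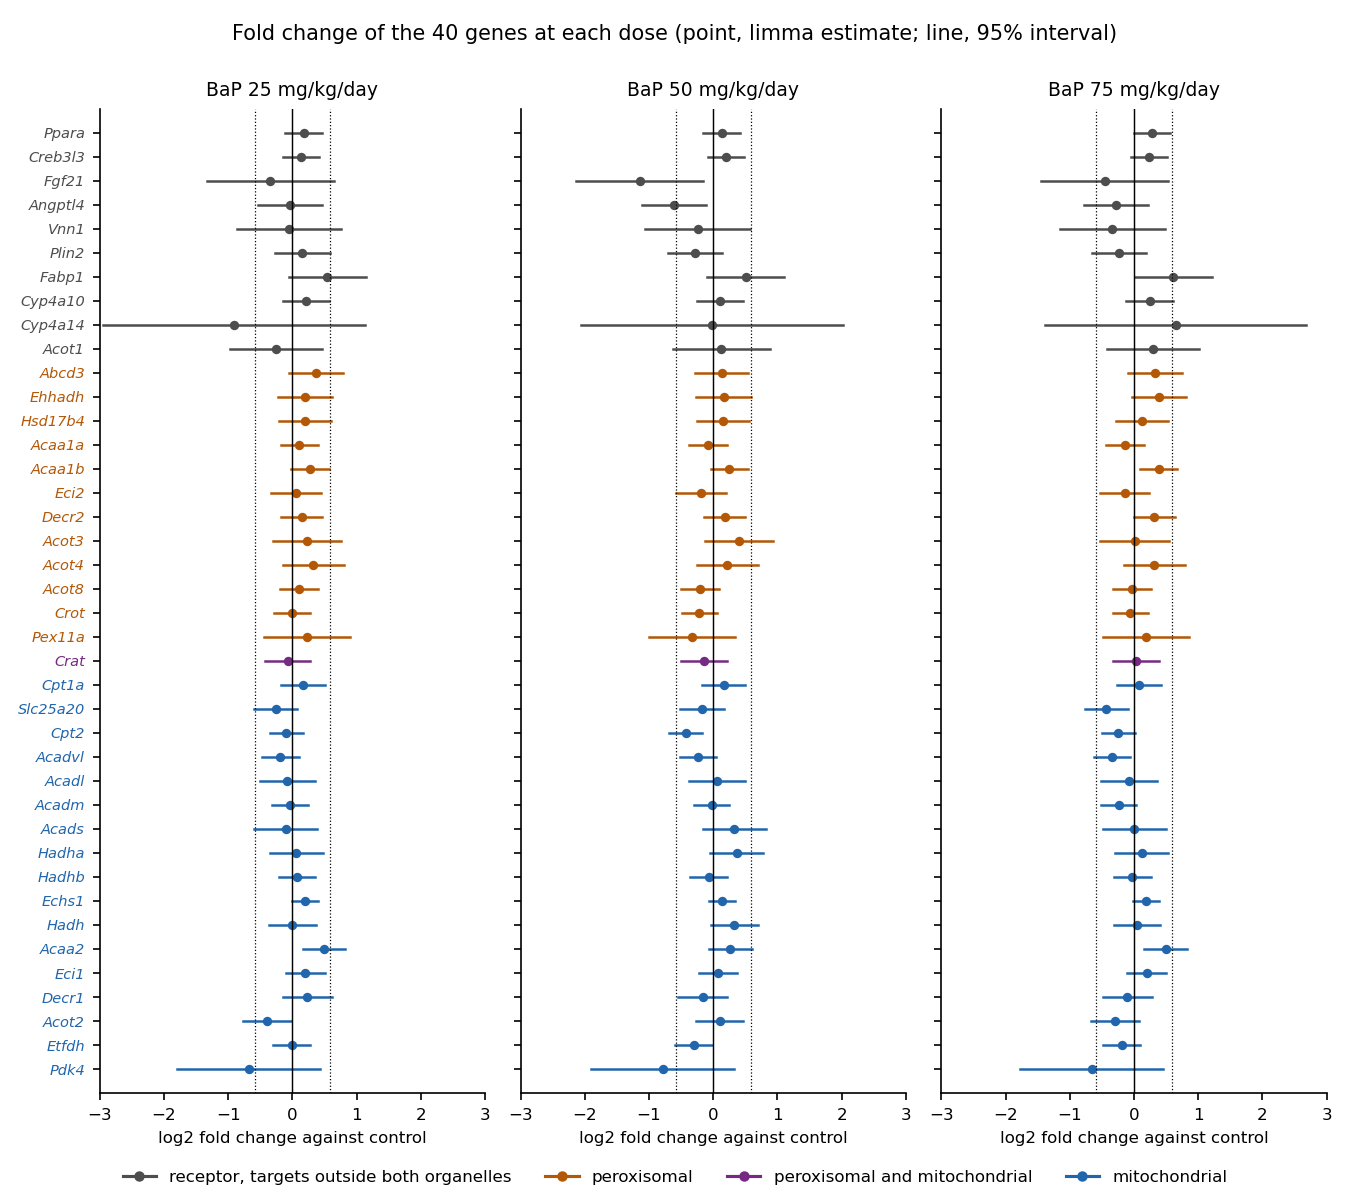
Log2 fold change of each of the 40 genes against control (x axis) at 25, 50 and 75 mg/kg/day (panels), by limma; points are estimates, lines 95% intervals, dotted lines mark a 1.5-fold change, and colors give the compartment. Most intervals cross 0, 0 genes met the call rule, and the widest intervals belong to Cyp4a14, Pdk4 and Fgf21.

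Ppara itself, the receptor, had log2 ratios of 4.46, 3.67, 3.84, 3.75 and 4.26 in the 5 controls. At 75 mg/kg/day they were 4.30, 4.20, 4.45, 4.17 and 4.26, all within the range of the controls. The difference was 0.28 ± 0.14 on the log2 scale (SE), with an adjusted p of 0.445 by limma, and -0.07 in the liver channel alone, without the reference. At 25 mg/kg/day the values ran from 3.94 to 4.35 and at 50 from 3.85 to 4.26, with differences of 0.18 and 0.13. Creb3l3, a liver factor that acts with PPAR alpha on Fgf21, showed differences of 0.13, 0.20 and 0.24 at the 3 doses, and its adjusted p by limma was at least 0.516. The sign turned at every dose in the liver channel alone, to -0.16, -0.07 and -0.19.

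The fatty acid binding protein of hepatocytes, Fabp1, had the highest estimate of the 40 genes at 25 and 50 mg/kg/day and the second highest at 75. Its log2 ratios were 8.07, 7.55, 8.01, 6.49 and 7.54 in the controls and 7.97, 7.74, 7.90, 8.81 and 8.32 at 75 mg/kg/day. Control replicate 4 stood apart at the low end. The exposed values overlapped those of the other controls, with 2 of 5 exposed arrays above all of them.
The differences were 0.55, 0.51 and 0.61 (SE 0.29) at 25, 50 and 75 mg/kg/day, and the adjusted p at 75 was 0.435 by limma. Without control replicate 4 the difference at 75 mg/kg/day was 0.35, and in the liver channel alone, without the reference, it was 0.02. The 9 hepatocyte markers moved alongside: their median difference at 75 mg/kg/day was 0.44 in the log2 ratio and -0.04 in the liver channel alone, and their mean log2 ratio was 4.14 in control replicate 4 against 4.71 to 5.32 in the other controls. Their part in the result was not tested, nor was that of the reference channel or of the normalization. Neither a change in the share of hepatocytes nor a change in RNA per hepatocyte is shown here. In whole liver the 2 cannot be told apart.

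Cyp4a10 and Cyp4a14 encode omega-hydroxylases, which oxidize fatty acids at the far end of the chain, and are among the classical targets of PPAR alpha in rodents. Cyp4a14 had log2 ratios of 2.74, 6.26, 4.23, 5.31 and 5.68 in the controls. They were 5.36, 2.53, 3.14, 6.40 and 2.22 at 25 mg/kg/day, and 3.17, 3.48, 5.10, 6.61 and 5.76 at 50. At 75 mg/kg/day they were 7.52, 7.77, 2.99, 3.85 and 5.33.
Every group held both low and high animals, and over all arrays the lowest and the highest value were 46.8-fold apart. The difference at 75 mg/kg/day was 0.65 ± 0.98 (SE), with an adjusted p of 0.85 by limma, and its 95% interval ran from 0.381-fold to 6.43-fold. At 25 mg/kg/day it was -0.91, with an adjusted p of 0.83, and at 50 it was -0.02. When 1 array was left out, the difference at 75 mg/kg/day ran from 0.08 (without BaP 75 mg/kg/day replicate 17, the highest) to 1.27 (without replicate 18, the lowest of that dose), and it was 0.12 without control replicate 1, the lowest control.

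Cyp4a10 ranged from 4.37 to 4.76 in the controls, with the other arrays between 4.15 and 5.17, and its groups overlapped at every dose. Its differences were 0.21, 0.10 and 0.24 at the 3 doses (SE 0.17), with an adjusted p of at least 0.628 by limma. A dimmer probe of Cyp4a10 gave 0.07, 0.11 and 0.17 and a far wider spread between animals, an SD within groups of 0.747 against 0.291. Cyp4a genes are close relatives in one cluster on chromosome 4, so signal shared between them is possible and the identity of either probe's target is uncertain.

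The secreted products Fgf21 and Angptl4 were among the 3 lowest estimates of the set at 50 mg/kg/day. Fgf21, the fasting hormone made by liver, had log2 ratios of 1.25, 2.63, 0.35, -0.09 and 2.20 in the controls and -0.26, 0.24, -0.35, 0.90 and 0.11 at 50 mg/kg/day. The exposed values lay in the lower part of the control range or under it, with 2 of 5 arrays under all controls. The difference was -1.14 ± 0.47 (SE), with an adjusted p of 0.707 by limma, and a second probe of Fgf21 gave -0.65. At 75 mg/kg/day the 5 arrays gave 0.38, 0.30, 0.29, 0.54 and 2.55, of which only replicate 20 exceeded 0.54, and at 25 they ran from 0.22 to 1.46.

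Angptl4, an inhibitor of lipoprotein lipase, had log2 ratios of 2.59, 2.21, 2.63, 1.76 and 2.54 in the controls and 2.01, 2.14, 1.51, 1.99 and 1.02 at 50 mg/kg/day. Of the 5 exposed arrays, 2 lay under all controls, and the rest lay among them. The difference was -0.61 ± 0.24 (SE), with an adjusted p of 0.697 by limma, and at 25 and 75 mg/kg/day it was -0.04 and -0.28. For Plin2, which coats lipid droplets, the 3 differences were 0.16, -0.29 and -0.24 (SE 0.20), and the values of all groups overlapped between 1.92 and 3.47. Vnn1, a pantetheinase, showed differences of -0.05, -0.24 and -0.34 (SE 0.39).

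Acot1, a cytosolic thioesterase that splits long acyl-CoA, ranged from 0.21 to 1.82 in the controls and from 0.10 to 2.23 at 75 mg/kg/day. Its differences were -0.25, 0.13 and 0.29 (SE up to 0.36), with 4 arrays in place of 5 at 50 mg/kg/day because the spot of replicate 13 was marked as an outlier. The acyl-CoA thioesterases Acot1, Acot2, Acot3 and Acot4 are close relatives on chromosome 12, so shared signal cannot be told apart here either.

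**Figure D2:**
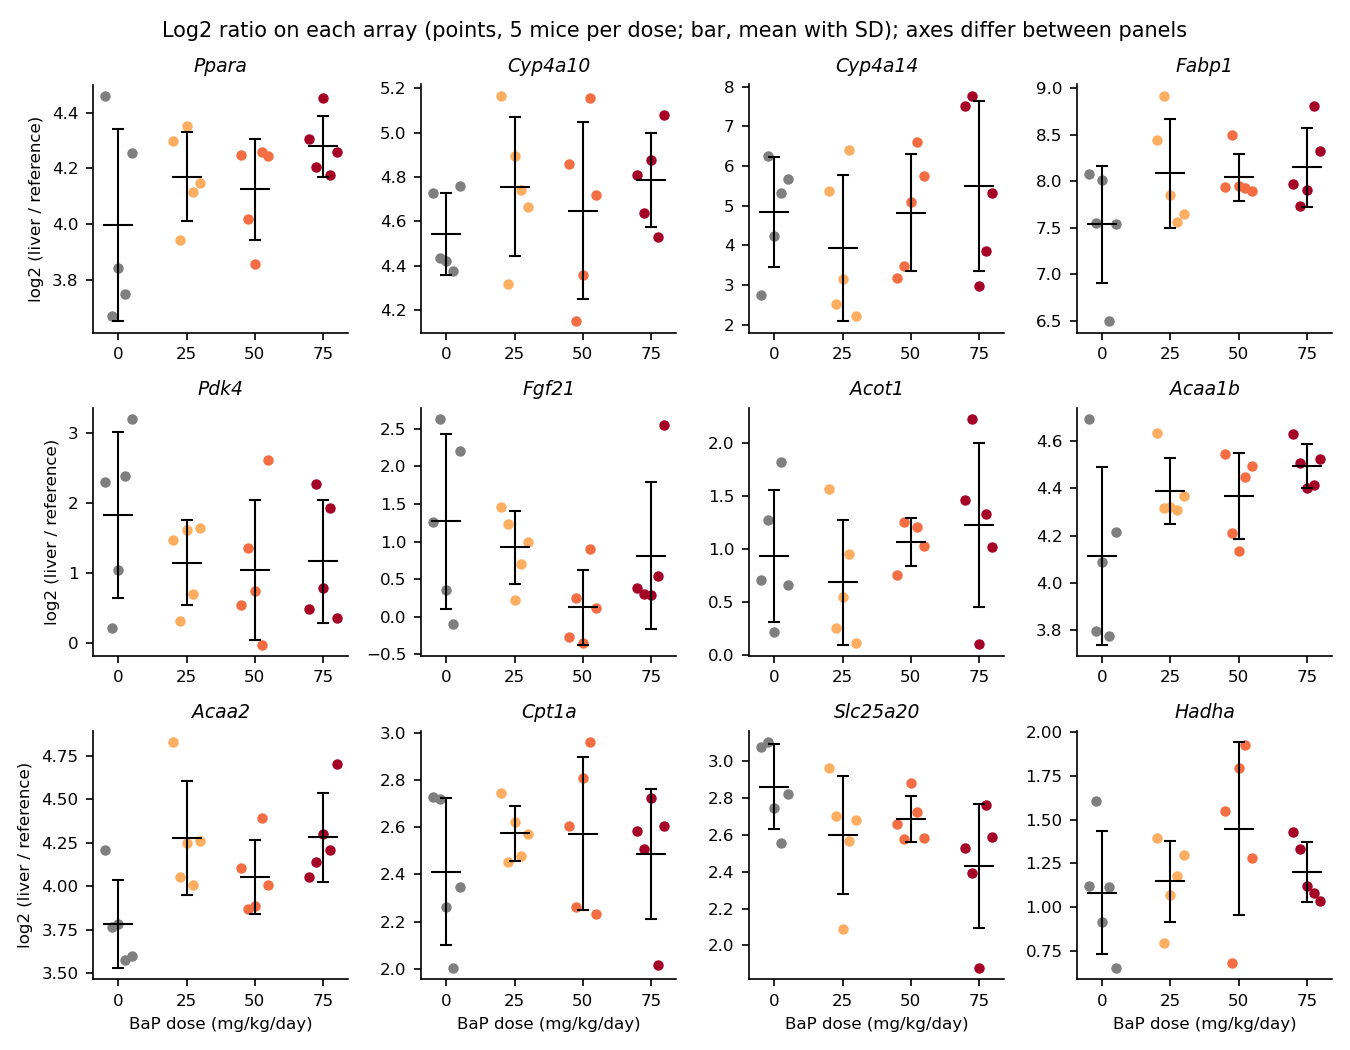
Log2 ratio of liver over reference (y axis, a different range in each panel) by BaP dose in mg/kg/day (x axis) for 12 of the genes; each point is 1 mouse, with 5 per dose except Acot1 at 50 mg/kg/day with 4, and bars give the mean and SD. The points of each exposed group overlap those of the controls in every panel, with Cyp4a14 spread from 2.22 to 7.77.

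Peroxisomal genes had estimates above 0 more often than below, without a call. Of the 12, 11 lay above 0 at 25 mg/kg/day, 7 at 50 and 8 at 75, beside 50.3%, 49.2% and 50.6% of all detected probes. The median difference of the 12 was 0.20, 0.14 and 0.16 on the log2 scale, beside 0.00 for all probes at each dose. It was 0.05, 0.04 and 0.24 for the 10 members outside both organelles. For 80 other genes of the pathway, described below, it was 0.11, 0.08 and 0.13. In the liver channel alone the median of the 12 peroxisomal genes was 0.12, -0.02 and 0.01. Its sign thus turned at 50 mg/kg/day, as it did with the processed signals of the scanner software (-0.01). With slide as a block it was 0.06 at 25 and 0.01 at 75 mg/kg/day. The hepatocyte markers moved alongside, with 9 of 9 above the control mean at each dose, by a median of 0.34, 0.27 and 0.44 in the log2 ratio and of -0.01, 0.00 and -0.04 in the liver channel alone, and their part in the shift was not tested. An unadjusted p below 0.05 was reached by 1 of the 12, Acaa1b at 75 mg/kg/day.

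Acaa1b, one of the paired peroxisomal thiolases that carry out the last step of the cycle, had log2 ratios of 4.69, 3.80, 4.09, 3.77 and 4.22 in the controls. At 75 mg/kg/day they were 4.63, 4.51, 4.40, 4.41 and 4.53. The exposed values all lay below control replicate 1 and above the other 4 controls. The difference was 0.38 ± 0.14 (SE), with an adjusted p of 0.323 by limma, which was 0.0599 without control replicate 1. In the liver channel alone the difference was 0.02. Acaa1a, its close relative, showed differences of 0.11, -0.08 and -0.14 by the brightest probe, and its other probes gave 0.18 and 0.01 at 75 mg/kg/day, so the probes of this gene disagreed in sign.

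Ehhadh, the bifunctional enzyme of the classical peroxisomal cycle, had log2 ratios of 4.77, 4.05, 3.99, 4.27 and 4.56 in the controls and 4.90, 4.70, 4.83, 4.43 and 4.74 at 75 mg/kg/day. Only 2 of the 5 exposed arrays lay above all controls. The difference was 0.39 ± 0.20 (SE), with an adjusted p of 0.487 by limma, and it was 0.20 at 25 and 0.16 at 50 mg/kg/day. Hsd17b4, the second bifunctional enzyme, which serves branched substrates, showed 0.20, 0.16 and 0.13.

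Abcd3, the transporter that admits long acyl-CoA to the peroxisome, had log2 ratios of 3.71, 2.82, 2.79, 3.30 and 3.72 in the controls and 3.66, 3.20, 3.76, 3.56 and 4.00 at 25 mg/kg/day. Of the 5 exposed arrays, 2 lay above all controls. The difference was 0.37 ± 0.20 (SE), with an adjusted p of 0.66 by limma, and at 50 and 75 mg/kg/day it was 0.13 and 0.33. Both other probes of Abcd3 had differences above 0 at each dose, from 0.07 to 0.54.

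Eci2 and Decr2 handle the double bonds of unsaturated fatty acids. Decr2 showed 0.15, 0.18 and 0.32 (SE 0.15), with an adjusted p of 0.453 by limma at 75 mg/kg/day, while Eci2 showed 0.05, -0.18 and -0.15. Crot, which forms carnitine esters for the exit of shortened chains, lay at -0.01, -0.22 and -0.06. Pex11a, which takes part in peroxisome division, lay at 0.23, -0.33 and 0.19 (SE 0.32), and the thioesterase Acot8 at 0.11, -0.20 and -0.04. Crat, the carnitine acetyltransferase of both organelles, lay at -0.07, -0.14 and 0.03.

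Acot3 and Acot4 are the peroxisomal thioesterases of the chromosome 12 cluster. Acot3 was the dimmest of the 40 genes in detection. It was well above background in the liver channel on 7 of 20 arrays, against all 20 for each of the other 39. Its log2 ratios were 0.54, 0.26, 0.15, 0.37 and 0.49 in the controls and 0.41, 0.33, 1.37, 1.51 and 0.20 at 50 mg/kg/day. Replicates 13 and 14 stood above the rest there, and the difference was 0.40 ± 0.25 (SE), with an adjusted p of 0.79 by limma. Acot4 had log2 ratios of 3.30, 3.89, 3.04, 3.68 and 3.56 in the controls and 3.86, 4.37, 3.56, 3.32 and 3.94 at 75 mg/kg/day, with 2 of 5 arrays above all controls. Its differences were 0.33, 0.22 and 0.32 (SE 0.23) at the 3 doses.

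**Figure D3:**
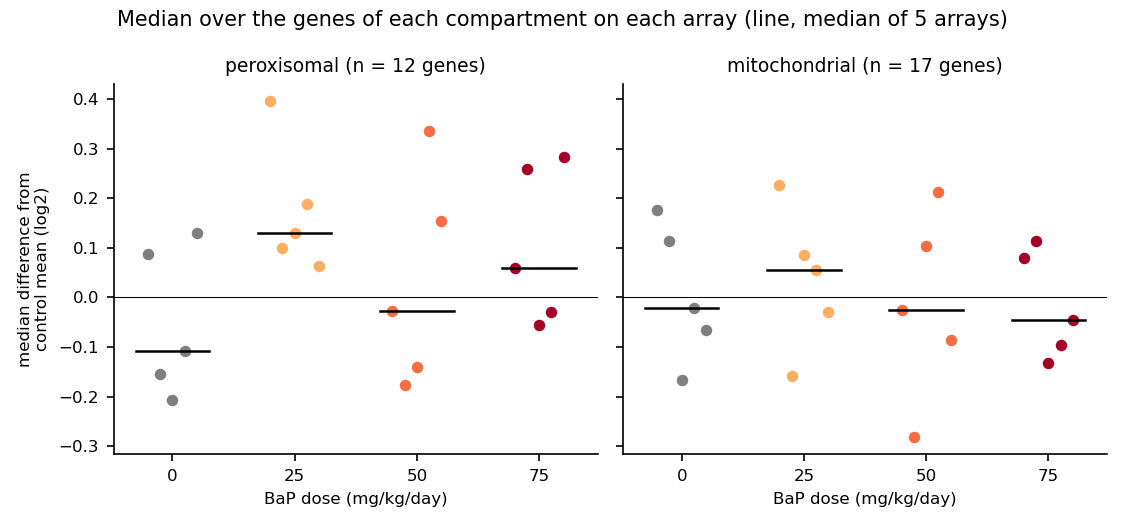
Median over the 12 peroxisomal (left) and 17 mitochondrial genes (right) of each array's log2 difference from the control mean (y axis) by BaP dose in mg/kg/day (x axis); points are mice, lines the median of 5 mice. Peroxisomal medians ran from -0.21 to 0.13 in the controls and from 0.06 to 0.40 at 25 mg/kg/day, and all exposed groups overlapped the controls in both panels.

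Mitochondrial genes were spread on both sides of 0. Of the 17, 8 had estimates above 0 at 25 mg/kg/day, 9 at 50 and 7 at 75, and their median difference was -0.01, 0.06 and -0.08. In the liver channel alone it was -0.09, -0.03 and -0.09, so the sign at 50 mg/kg/day turned. An unadjusted p below 0.05 was reached by Acaa2 and Acot2 at 25, by Cpt2 and Etfdh at 50, and by Acaa2, Slc25a20 and Acadvl at 75 mg/kg/day. In these comparisons the mean of Acaa2 lay above the control mean and the means of the other 5 genes lay below it, with overlapping arrays in each.

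In the carnitine shuttle, Cpt1a is the rate-limiting entry enzyme, Slc25a20 the carrier of the inner membrane and Cpt2 the enzyme that restores the acyl-CoA inside. Cpt1a had log2 ratios of 2.73, 2.72, 2.26, 2.00 and 2.35 in the controls and 2.59, 2.51, 2.72, 2.02 and 2.60 at 75 mg/kg/day, within the same range. Its differences were 0.16, 0.16 and 0.08 (SE 0.16), with an adjusted p of at least 0.816 by limma, and the 95% interval at 75 mg/kg/day ran from 0.833-fold to 1.33-fold. A second Cpt1a probe gave 0.15, 0.53 and 0.11.

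Slc25a20 had log2 ratios of 3.08, 3.10, 2.75, 2.55 and 2.82 in the controls and 2.53, 2.39, 1.88, 2.76 and 2.59 at 75 mg/kg/day. Of the 5 exposed arrays, 3 lay under all controls. The difference was -0.43 ± 0.16 (SE), with an adjusted p of 0.329 by limma, and the exposed array was lower on all 3 slides that held both groups. It was -0.26 at 25 and -0.17 at 50 mg/kg/day. Cpt2 showed -0.09, -0.43 and -0.25 (SE 0.12), with 4 of 5 arrays under all controls at 50 mg/kg/day and an adjusted p of 0.583 by limma.

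The first step of the mitochondrial cycle is taken by acyl-CoA dehydrogenases of different chain lengths. Acadm, the medium-chain enzyme, had log2 ratios of 2.69, 2.27, 2.11, 2.38 and 2.50 in the controls and 2.48, 2.24, 2.09, 2.06 and 1.87 at 75 mg/kg/day. The latter reached lower, with 3 of 5 arrays under all controls, and the difference was -0.24 ± 0.13 (SE), with an adjusted p of 0.508 by limma. It was -0.04 at 25 and -0.03 at 50 mg/kg/day. Acadvl, for very long chains, lay at -0.19, -0.23 and -0.34 (SE 0.14), with an adjusted p of 0.353 by limma at 75 mg/kg/day. Acadl lay at -0.08, 0.06 and -0.08, and Acads, for short chains, at -0.10, 0.33 and 0.00.

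The later steps are shared by Hadha and Hadhb, the subunits of the trifunctional protein, by Echs1 and Hadh, and by the thiolase Acaa2. Acaa2 had log2 ratios of 4.21, 3.77, 3.78, 3.58 and 3.60 in the controls. They were 4.83, 4.05, 4.25, 4.01 and 4.26 at 25 mg/kg/day and 4.05, 4.14, 4.30, 4.21 and 4.70 at 75. Control replicate 1 lay among the exposed arrays of both doses, and the other 4 controls lay below all of them.
The differences were 0.49 ± 0.16 and 0.50 ± 0.16 (SE), with adjusted p of 0.636 and 0.262 by limma, and at 50 mg/kg/day the difference was 0.27. In the liver channel alone they were 0.14 at 25 and 0.13 at 75 mg/kg/day.

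Hadha had log2 ratios of 1.12, 1.61, 0.91, 1.11 and 0.65 in the controls and 1.55, 0.68, 1.80, 1.93 and 1.28 at 50 mg/kg/day, with a difference of 0.37 ± 0.20 (SE) and an adjusted p of 0.77 by limma. Its differences at 25 and 75 mg/kg/day were 0.06 and 0.12. Hadhb lay at 0.07, -0.07 and -0.03, Hadh at 0.00, 0.33 and 0.05, and Echs1 at 0.20, 0.14 and 0.18 (SE 0.10).

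Eci1 and Decr1, for unsaturated chains, lay at 0.20, 0.07 and 0.19, and at 0.23, -0.16 and -0.10. Etfdh, which passes the electrons of the dehydrogenases to the respiratory chain, lay at -0.01, -0.31 and -0.19 (SE 0.14). In the liver channel alone it was -0.58 at 75 mg/kg/day. A second Etfdh probe gave -0.17, -0.17 and -0.48, with an adjusted p of 0.412 by limma at 75 mg/kg/day. Acot2, the mitochondrial thioesterase, had log2 ratios of -0.93, -0.91, -0.46, -0.87 and -1.17 in the controls and -0.87, -1.23, -1.43, -1.21 and -1.60 at 25 mg/kg/day. Of these 5 arrays, 4 lay under all controls, and the difference was -0.40 ± 0.18 (SE), with an adjusted p of 0.636 by limma. It was 0.10 at 50 and -0.30 at 75 mg/kg/day, and in the liver channel alone -0.09 at 25.

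Pdk4 encodes the kinase that shuts off pyruvate entry when fat is burned. Its log2 ratios were 2.30, 0.22, 1.04, 2.38 and 3.20 in the controls and 0.54, 1.36, 0.74, -0.02 and 2.61 at 50 mg/kg/day. The arrays gave 1.47, 0.31, 1.61, 0.70 and 1.65 at 25 mg/kg/day, and 0.48, 2.27, 0.79, 1.93 and 0.35 at 75. Its differences of -0.68, -0.78 and -0.66 were among the 3 lowest of the set at each dose, but the SE was 0.53 and only 1 exposed array, at 50 mg/kg/day, lay under all controls. The adjusted p was at least 0.68 by limma.

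The spread between animals of the same group was wide for several of these genes. Each animal had 1 array, so this spread also holds differences between arrays. The SD within groups had a median of 0.295 over the 40 genes and 0.217 over all detected probes, and 35 of the 40 lay above the latter. Above 0.474, the level that 5% of all probes exceed, lay 7 of the 40 genes. They were Cyp4a14 (1.74), Pdk4 (0.943), Fgf21 (0.836), Vnn1 (0.686), Acot1 (0.604), Pex11a (0.558) and Fabp1 (0.496). These are descriptions and were not tested, and no set of genes of like brightness was compared. By compartment the median was 0.321 for peroxisomal, 0.266 for mitochondrial and 0.452 for the other genes, and Echs1 had the lowest SD, 0.137.

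**Figure D4:**
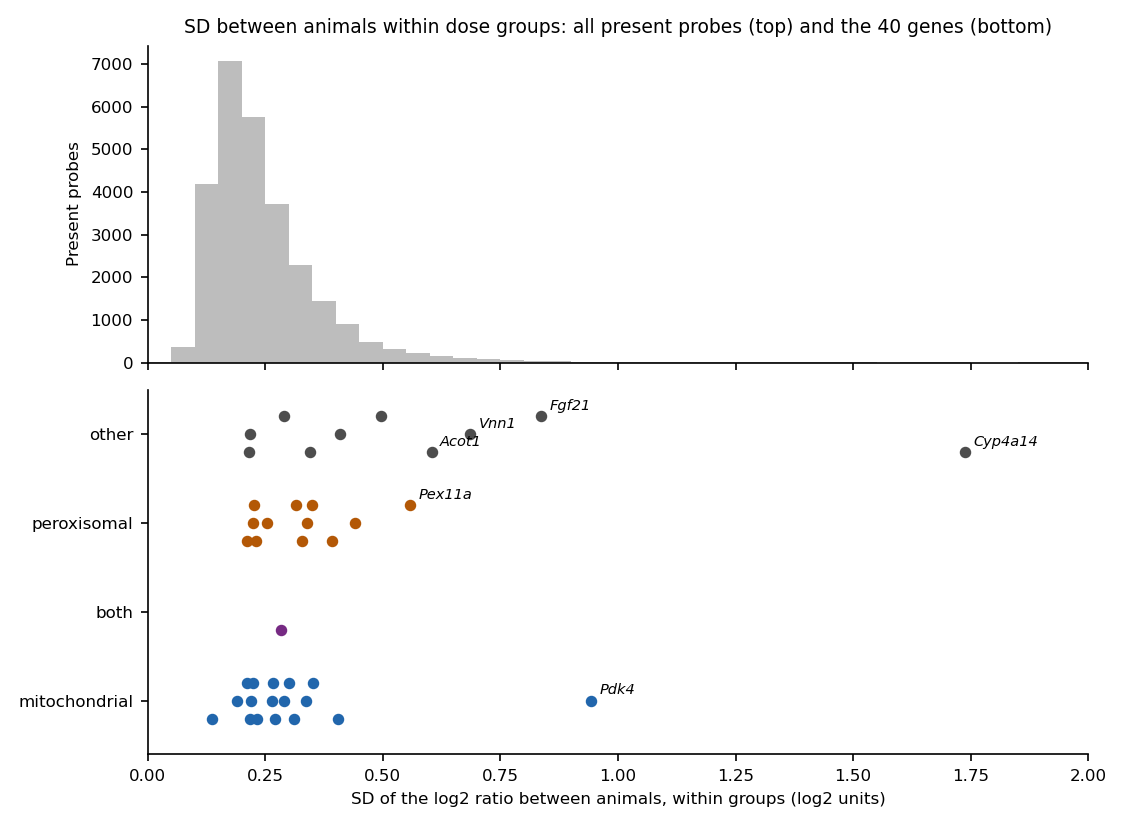
SD of the log2 ratio between animals within dose groups (x axis, log2 units): the number of detected probes per bin above, and the 40 genes by compartment below, where each point is 1 gene and the vertical offset within a row has no meaning. Cyp4a14 at 1.74 lies farthest out, and genes above 0.5 are named.

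The other 39 genes were related to Cyp4a14, a reference gene chosen with its wide range already known, across the 20 animals after the mean of each dose group was removed, with permutations within groups. The log2 ratio of Acot4 followed that of Cyp4a14 with r = 0.84 (permutation p = 0.00015, adjusted p = 0.00585 over the 39 genes) and rho = 0.77 (permutation adjusted p = 0.0218). The correlation had the same sign in all 4 groups, was 0.86 without the 2 arrays farthest from the median of Cyp4a14 and 0.81 after slide means were removed too. A second probe of Acot4 gave r = 0.82 and rho = 0.83, by permutation p = 7e-05. Acot4 was 1 of 39 genes past the adjusted p by r. It remained so without any 1 of the 20 arrays and in 9 of 10 other settings, but not with the processed signals of the scanner software, where r was 0.66 with a permutation adjusted p of 0.206.

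Acot1 had r = 0.68 over 19 arrays (permutation adjusted p = 0.0735) and rho = 0.73 (permutation adjusted p = 0.0371), with 1 sign in all 4 groups and r = 0.63 without the 2 farthest arrays. After slide means were removed too, its r was 0.60. Acads (0.81, beside 0.81 for Acot4), Hadh (0.75), Slc25a20 (0.74) and Vnn1 (0.69) were among the genes above Acot1 there. Before that removal, the next after Acot1 were Acot3 (r = 0.60), Vnn1 (0.53), Eci2 (0.52) and Acadl (0.48), for which the adjusted p by permutation was 0.142 or more. At the other end stood Creb3l3 (r = -0.48) and Fabp1 (r = -0.40), with permutation adjusted p of 0.293 and 0.421. Of the 39 coefficients, 30 were above 0, and their median was 0.17. The points share their arrays and reference, so the 39 relations are not independent.

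Cyp4a10 gave r = 0.24 by its brighter probe (permutation adjusted p = 0.654) and r = 0.85 by its dimmer probe (permutation p = 8e-05). In the liver channel alone the brighter probe gave r = 0.90, with a permutation adjusted p of 0.00039. The relation of the pair thus depended on the probe and on the use of the reference channel. The share of spots well above background (r = 0.15) and the mean log2 ratios of the hepatocyte (r = -0.30), adipocyte (r = -0.04) and Kupffer cell markers (r = -0.18) were related to Cyp4a14 in the same way, with 4 relations in that family and a permutation adjusted p of at least 0.703.

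**Figure D5:**
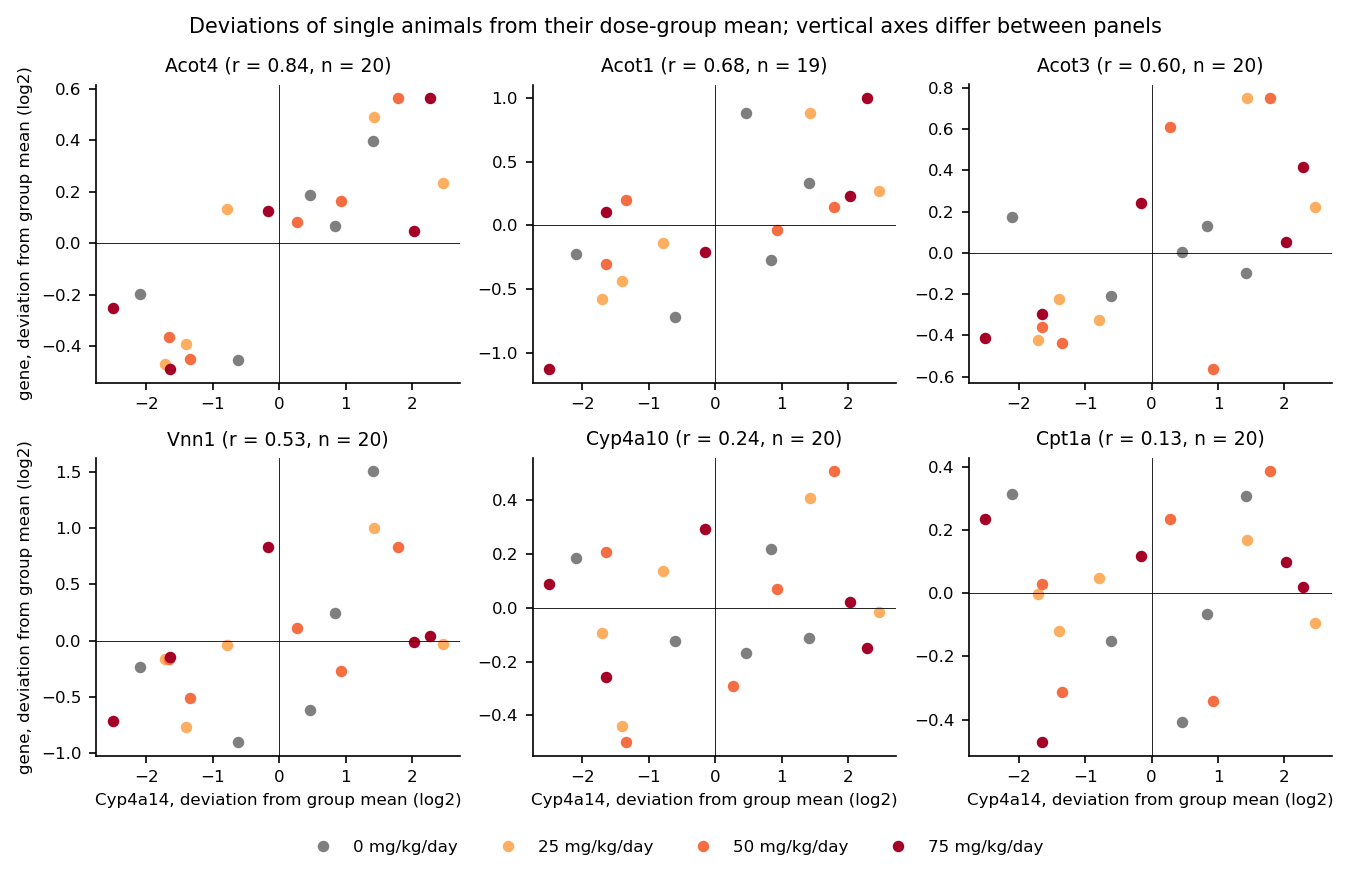
Deviation of each mouse from the mean of its dose group in Cyp4a14 (x axis) and in 6 other genes (y axis, a different range in each panel), in log2 units, colored by dose. Acot4 follows Cyp4a14 most closely (r = 0.84), Acot1 has 19 points, and Cyp4a10 (brighter probe) and Cpt1a show little relation (r = 0.24 and 0.13).

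Other genes of the pathway were taken from a list of 84, of which 80 had a detected probe, 2 had no probe and 2 were not detected. By the same rule 0 of the 80 were called at 25, 50 or 75 mg/kg/day, and 0 by the trend. An unadjusted p below 0.05 was reached by 7 genes at 25 (6 above and 1 below the control mean), 10 at 50 (5 and 5) and 12 at 75 mg/kg/day (9 and 3). These were 8.75%, 12.5% and 15.0% of the 80 genes, beside 7.81%, 6.7% and 11.2% of all probes. The lowest adjusted p by limma was 0.636, 0.58 and 0.146. For the trend, 11 of the 80 genes had an unadjusted p below 0.05 by limma, against 8.58% of all probes, and the lowest adjusted p was 0.0824. At 25 mg/kg/day the highest estimates were those of the lipid droplet gene Cidec (0.57) and the sterol carrier Scp2 (0.52), and the lowest those of Hacl1 (-0.35) and Cpt1b (-0.26).
At 50 mg/kg/day the highest were Lpin1 (0.62), a coactivator and phosphatidate phosphatase, and catalase (Cat, 0.49), and the lowest G0s2 (-0.78), an inhibitor of fat breakdown, and Plin4 (-0.55). At 75 mg/kg/day Lpin1 (0.56) stood highest and G0s2 (-0.68) and Plin4 (-0.50) lowest. The adjusted p of these genes by limma was at least 0.237. The exposed arrays lay above all controls for Abcd2 and Lpin1 at 50 and for Abcd2 and Acsl5 at 75 mg/kg/day, 2 of the 80 each, against 0.823% and 1.52% of all probes in either direction. The Abcd2 probe was near background, marked as well above it on 2 of 20 arrays, with log2 ratios from -0.20 to 0.38. Acsl5 was marked on all 20 arrays and had the lowest adjusted p of the trend, with differences of 0.15, 0.37 and 0.47 at 25, 50 and 75 mg/kg/day.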

How the data were processed

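Two-color arrays of 20 livers were used. The authors deposited scanner intensities, median spot and background brightness per channel, extracted by Feature Extraction without normalization, and processed intensities that the software had background subtracted and dye normalized. The log2 ratios deposited by the authors were normalized by LOWESS within arrays and correlated with those computed here (r of 0.994 to 0.996). Marks deposited by the authors gave spots that were outliers, saturated (0) or well above background.

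Median intensities were corrected by normexp (offset 50) and loess within arrays in limma 3.58.1 (R 4.3.3), outlier spots were left out, and spots were averaged into 41174 probes. Detected probes (27346) were those that, in 4 or more arrays of any group, lay over the trimmed mean of the 153 negative controls by 3 of their trimmed SDs (trim 5%), after the study's methods. A limma model over all 20 arrays gave each dose against control and a linear trend, with Benjamini-Hochberg adjustment over all detected probes. The study's MAANOVA test was not run. The study left out an array after clustering and did not name it, while all 20 were kept here. Precision is set by 5 arrays per group, and p-values reflect the spread between mice. Relations used 100000 permutations of arrays within groups. The limma and permutation steps were tested on simulated data.

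The members and gene lists were chosen with earlier results of these data known. Per-array values were given for 14 members fixed by name, for the 3 highest and 3 lowest at each dose, and for any member called or separated from the controls. For Cyp4a10, Acot1 and Plin2, which are among those fixed by name, ranges were given in their place. Per-array values of Acot4 were given outside this rule. Of the other pathway genes, the 2 highest and 2 lowest at each dose were named, except 1 that is not reported here; Acsl5 and Abcd2 were named after their values were seen. Gene symbols came from RefSeq accessions. Promoters came from RefSeq (GRCm38.p6); those of Angptl4, Vnn1, Cyp4a10, Cyp4a14, Hsd17b4, Crat, Acaa2 and Decr1 were not used here. Alternatives covered background correction, signal columns, the authors' ratios, scaling between arrays, the liver channel alone, filters, slide, array weights, robust variance, probe choice, pairwise fits, joint adjustment and leaving out each array. The other probes of the members and 4 measures of arrays and cell types were added after seeing the data.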

Additional observations from a re-analysis of the deposited data

Results flagged for a closer look

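Within single dose groups of 5 mice, 9 of 160 groups tested (40 genes in 4 groups) held an array whose gap to its neighbour exceeded Dixon's critical value, where chance gives about 1 in 20. Fgf21 was 2.55 in BaP 75 mg/kg/day replicate 20, with the next highest at 0.54. Fabp1 was 8.49 in BaP 50 mg/kg/day replicate 12, with the next at 7.95. At 25 mg/kg/day, replicate 7 was highest for Creb3l3 (5.12, next 4.67) and lowest for Acadm (2.00, next 2.41) and Hadhb (1.55, next 1.92). In the same group Acaa1a was lowest in replicate 8 (1.80, next 2.25) and Acaa1b highest in replicate 6 (4.63, next 4.37). At 75 mg/kg/day, replicate 19 was lowest for Hadhb (1.35, next 1.84) and Etfdh (2.95, next 3.34). All values are log2 ratios of liver over reference.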

How the results depend on the processing

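The counts of members called (0 at each dose and by the trend) and of other pathway genes called (0 at each dose) stayed 0 in every alternative run. The lowest adjusted p of a member in any alternative was 0.319 at 25, 0.197 at 50 (slide as a block) and 0.0599 at 75 mg/kg/day (without control replicate 1). Estimates changed sign in at least 1 alternative for 22 members at 25, 12 at 50 and 19 at 75 mg/kg/day, and for 17, 9 and 15 with all arrays kept. The median of the peroxisomal members ranged over the alternatives with all arrays from 0.06 to 0.22 at 25, from -0.02 to 0.16 at 50 and from 0.01 to 0.19 at 75 mg/kg/day. In the liver channel alone, Fabp1 at 25 was -0.15 and Acaa1b at 25 was -0.20. The dim Acot3 was 1.17, 1.49 and 0.80 at the 3 doses with the processed signals.

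The number of members related to Cyp4a14 (1) was 0 with the processed signals, 4 in the liver channel alone, 3 with the mean of all probes, 2 with slide as a block, 2 without removing group means and 2 among the 11 other probes. It ranged from 1 to 3 when each array was left out, with 2 without control replicate 1 or BaP 50 mg/kg/day replicate 12 and 3 without replicate 15 of that dose; the cause was not tested. No paired analysis was possible because no replicate number is shared between groups; slides that held several groups entered as a block instead. Of the 40 members, 39 were well above background on all arrays, so dimness limits Acot3 alone.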
